A study of Mus musculus with 12 samples.

Results

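The genes described here are 8 genes of MHC class II presentation, the route by which dendritic cells show peptides from engulfed material to CD4+ T cells. They are the chain genes H2-Aa, H2-Ab1 and H2-Eb1, the invariant chain gene Cd74, the peptide-loading genes H2-DMa, H2-Oa and H2-Ob, and the transactivator gene Ciita. A member was a gene with a probe set that the platform annotation assigns to its symbol and to no other gene, with the highest mean over 12 arrays deciding between several. Each of the 8 symbols had 1 such probe set, so the 8 members were measured by 8 probe sets among the 19937 genes that could be tested.

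The study compared cells that lack interleukin 2 (IL-2), a cytokine best known from T cells, with wild-type cells, with and without curdlan, a beta-glucan sensed through Dectin-1. Its stated aim was to examine the part of IL-2 in the physiology of these cells. The 4 groups had 3 arrays each: IL-2-/- cells given curdlan for 6 h, untreated IL-2-/- cells, wild-type cells given curdlan for 6 h, and untreated wild-type cells. All were bone marrow cells cultured for 7 days with 200 ng/ml of GM-CSF and collected with beads that bind CD11c. The strain is given as B6.129P2-Il2tm1Hor/J for every sample, including those called wild type, so genotype was taken from the titles and the genotype label. The age of the mice and whether replicates came from separate animals are not given in the labels. A p-value here rests on the spread of samples within groups, pooled over the 4 groups and drawn toward that of other genes. That spread may be technical. Cultures of this kind hold macrophage-like cells as well as dendritic cells. Purity was given as above 95%, judged by CD11c together with surface class II (I-A/I-E), so the protein product of several members was itself part of the purity check.

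A class II molecule is a pair of an alpha and a beta chain. H2-Aa and H2-Ab1 encode the chains of I-A, and H2-Eb1 encodes the beta chain of I-E. Cd74 encodes the invariant chain, which fills the peptide groove and guides the pair to endosomes, where proteases trim it down to a short piece called CLIP. H2-DM, with H2-DMa encoding its alpha chain, exchanges CLIP for other peptides, and H2-DO, the product of H2-Oa and H2-Ob, inhibits H2-DM. CIITA, the product of Ciita, binds no DNA itself. It is recruited to class II promoters by the RFX and NF-Y complexes, which bind the X box and the Y box. Maturing dendritic cells are known to turn Ciita transcription down while holding class II molecules at the surface for longer.

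The sequences upstream of 4 members are shown because each holds letters of the Y box, with letters of the X box or a shorter form of them before it, and because their genes differed in how they varied over the arrays. They are the 250 bases before the annotated start in RefSeq's table for GRCm38.p6, written 5′ to 3′ on the strand of the gene. The capitals mark AGCAAC, the core of the X1 box, and ATTGG, the core of the Y box (CCAAT where it lies on the other strand). H2-Oa lies on the plus strand and its stretch is chr17:34092129-34092378. H2-Ob lies on the plus strand and its stretch is chr17:34238655-34238904. H2-Eb1 lies on the plus strand and its stretch is chr17:34305617-34305866. H2-Aa lies on the minus strand and its stretch is chr17:34287824-34288073.
H2-Oa: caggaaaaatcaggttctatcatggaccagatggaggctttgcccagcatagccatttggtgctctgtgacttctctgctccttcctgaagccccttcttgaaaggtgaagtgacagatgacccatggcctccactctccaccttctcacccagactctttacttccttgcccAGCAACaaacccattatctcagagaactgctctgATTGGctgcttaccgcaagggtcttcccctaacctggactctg
H2-Ob: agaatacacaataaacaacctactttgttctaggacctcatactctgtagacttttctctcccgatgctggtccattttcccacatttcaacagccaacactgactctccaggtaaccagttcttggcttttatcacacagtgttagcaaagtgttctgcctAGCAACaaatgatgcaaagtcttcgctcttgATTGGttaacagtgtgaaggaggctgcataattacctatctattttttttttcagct
H2-Eb1: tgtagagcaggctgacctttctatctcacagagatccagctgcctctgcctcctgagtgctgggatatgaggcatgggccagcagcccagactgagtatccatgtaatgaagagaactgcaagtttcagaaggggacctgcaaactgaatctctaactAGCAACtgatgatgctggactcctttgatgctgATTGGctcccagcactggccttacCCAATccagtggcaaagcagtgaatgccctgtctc
H2-Aa: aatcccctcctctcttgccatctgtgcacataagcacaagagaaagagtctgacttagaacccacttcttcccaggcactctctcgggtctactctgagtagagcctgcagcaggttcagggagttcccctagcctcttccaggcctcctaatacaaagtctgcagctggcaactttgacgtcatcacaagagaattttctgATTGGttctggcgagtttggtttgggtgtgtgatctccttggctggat

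The letters were searched on both strands of 32851 windows of 27025 genes, each reaching from 250 bases before to 50 bases after a start. AGCAAC occurred in 14.8% of the windows, ATTGG in 37.4%, and both in 5.84%. In H2-Oa, H2-Ob and H2-Eb1 the AGCAAC started 34, 31 and 33 bases before ATTGG, on the same strand. In H2-Aa the shorter letters GCAAC, found in 35.2% of all windows, started 33 bases before ATTGG. The longer letters AGCAAC followed by ATTGG at a distance of 30 to 35 bases were found in 26 windows, or 0.0791%, and GCAAC in place of AGCAAC gave 93 windows, or 0.283%. The distance and the shorter letters were chosen after these windows were seen. Of the pair of windows listed for H2-DMa, the first held GCAAC but neither AGCAAC nor ATTGG, and the second held ATTGG alone. Letters of an interferon-gamma activated site (TTCNNNGAA, in 8.30% of windows) were in 0 of the 6 windows that 5 members had. The other 3 members, H2-Ab1, Ciita and Cd74, are named only. A match of letters is a description of the window and says nothing about binding.

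The values are log2 signals made with RMA, on which a difference of 1 is a doubling. Correlations between arrays across probe sets lay between 0.981 and 0.997. Il2, the disrupted gene, read 5.87, 5.80 and 5.63 in curdlan-treated IL-2-/- cells, against 7.80, 7.22 and 6.74 in curdlan-treated wild-type cells, a difference of -1.48 (limma, adjusted p = 0.0114). In untreated cells it read between 5.77 and 6.04 in IL-2-/- cells and between 5.37 and 5.56 in wild-type cells, and that difference of 0.41 did not pass (0.524), so the check of the labels rests on the curdlan-treated arrays. The position of its probes relative to the disrupted part is not stated in the labels. The labelled cell type was checked on 6 dendritic cell markers (Itgax, Flt3, Zbtb46, Ccr7, Dpp4, Cd86), and all 6 read above the lower quartile of gene means, 5.38, on at least 1 array. All 6 macrophage markers did so too, so this reading does not tell dendritic cells from macrophages. The linear signals of each list were added and the sum was taken to log2, so the brightest genes weigh most. Over all arrays this log2 sum was 13.44 to 14.28 for the dendritic cell list and 14.48 to 14.73 for the macrophage list.

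After 6 h of curdlan the class II chain genes and Cd74 differed by at most 0.09 on the log2 scale in both genotypes, and none of these 4 genes passed the test. H2-DMa was the exception among the 8 members. It fell by 0.21 in IL-2-/- cells and by 0.27 in wild-type cells, a reading 1.16 and 1.20 times lower. The threshold was an adjusted p of 0.05 in limma, adjusted over all genes within a comparison. In IL-2-/- cells 0 members rose and 1 fell, against 9.29% of all genes that rose and 13.2% that fell. In wild-type cells it was again 0 and 1, against 7.27% and 12.3% of all genes. The share of members that fell was thus close to the background. The median member difference was -0.04 in each genotype, against medians over all genes of 0.04 in IL-2-/- cells and 0.02 in wild-type cells.

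H2-Aa read 13.03, 13.16 and 13.10 in curdlan-treated IL-2-/- cells and 13.09, 13.22 and 13.15 in untreated IL-2-/- cells. In wild-type cells it read 13.11, 13.11 and 13.09 with curdlan, against 13.08, 13.10 and 13.17 untreated. All 4 groups overlapped, and the whole span over 12 arrays was 0.19. H2-Ab1 read 13.12, 13.27 and 13.23 in curdlan-treated IL-2-/- cells, against 13.21, 13.37 and 13.23 in untreated ones. Wild-type cells gave 13.19, 13.18 and 13.18 with curdlan, against 13.22, 13.29 and 13.31 untreated. The wild-type groups of H2-Ab1 did not overlap, but their difference of -0.09 ± 0.06 (SE) did not pass the test (adjusted p = 0.316).

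H2-Eb1, whose I-E beta chain has no partner where H2-Ea is silent, read 12.96, 13.15 and 13.01 in curdlan-treated IL-2-/- cells and 12.96, 13.17 and 13.04 in untreated ones. Wild-type cells gave 13.05, 13.07 and 13.13 with curdlan, against 12.97, 13.15 and 13.19 untreated. The groups overlapped throughout. Cd74 read 13.16, 13.23 and 13.21 in curdlan-treated IL-2-/- cells, against 13.19, 13.33 and 13.24 in untreated ones. In wild-type cells it read 13.17, 13.26 and 13.25 with curdlan, against 13.20, 13.25 and 13.31 untreated. Its span of 0.17 over 12 arrays was the smallest of the 8 members. For these 4 genes the 95% intervals of the curdlan effect ran from -0.22 to 0.16 at their widest, with adjusted p between 0.316 and 0.911. Their values lay close to the top of the arrays' range, where the highest gene mean was 13.88, and whether the arrays could register a further rise there was not tested.

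**Figure D1:**
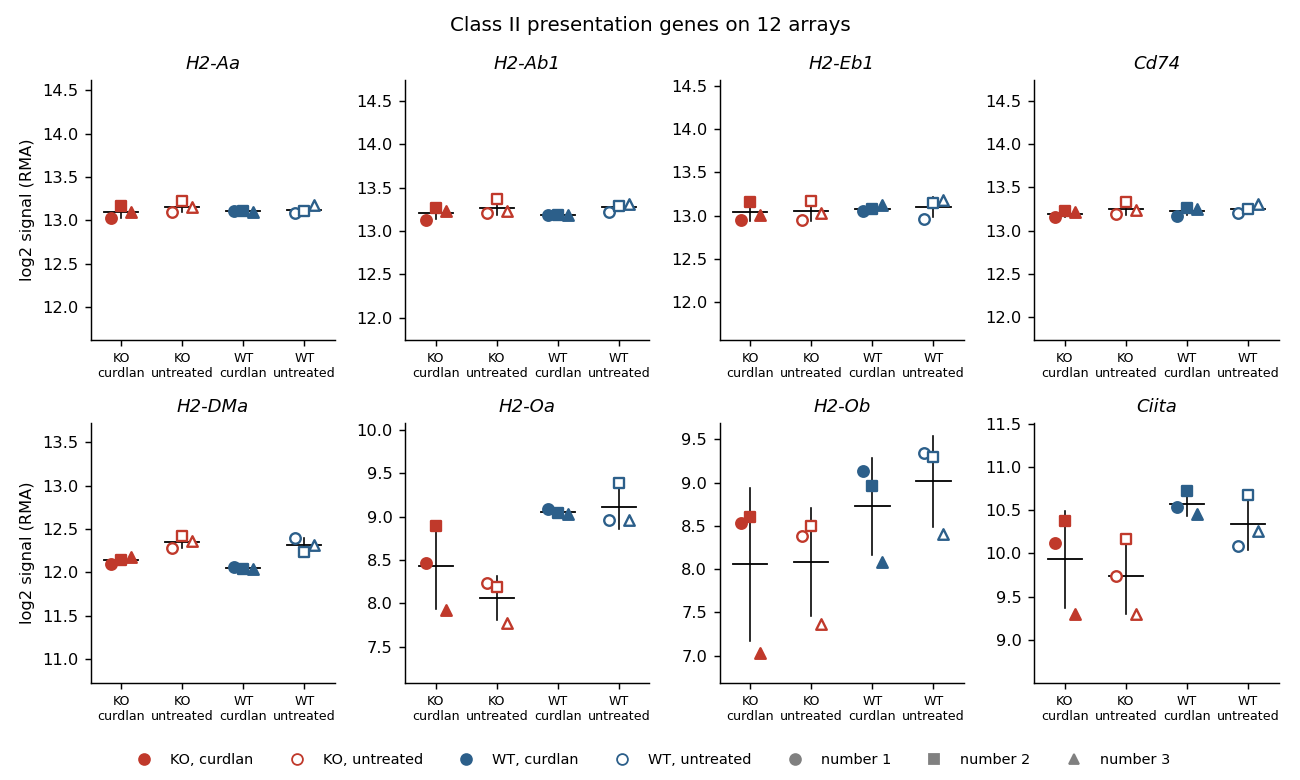
Log2 signal of each of the 8 members (y axis) on every array, by group (x axis), with a horizontal bar for the group mean, a vertical bar for the SD of 3 arrays and the marker shape for the replicate number. Each panel spans the same range of log2 units. The chain genes and Cd74 stay within 0.24 over all arrays, while H2-Oa, H2-Ob and Ciita span 1.62, 2.31 and 1.42.

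H2-DMa read 12.09, 12.15 and 12.18 in curdlan-treated IL-2-/- cells, against 12.28, 12.42 and 12.36 in untreated IL-2-/- cells. In wild-type cells it read 12.07, 12.04 and 12.03 with curdlan, against 12.39, 12.23 and 12.32 untreated. Every curdlan array lay below every untreated array of its genotype, and all 6 same-numbered pairs showed the fall. The difference was -0.21 ± 0.06 in IL-2-/- cells (SE; limma, adjusted p = 0.0222) and -0.27 ± 0.06 in wild-type cells (adjusted p = 0.0073). Non-overlapping lower arrays occurred in 20.8% of all genes in IL-2-/- cells and in 21% in wild-type cells. The call in IL-2-/- cells was lost when only the compared groups were fitted (adjusted p = 0.0576) and without any 1 of 4 arrays. These were curdlan replicate 1 (0.0780) or 2 (0.0630) and untreated replicate 2 (0.0565) or 3 (0.0640), with differences between -0.25 and -0.18 over all single-array omissions. In wild-type cells the call was kept without any 1 array. The curdlan effects of the genotypes differed by 0.05 ± 0.08 (SE), with an interval from -0.12 to 0.23 and an adjusted p of 0.9998.

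In bulk RNA, fewer cells of a type and less RNA per cell cannot be told apart, so markers of cell types were read beside these values. With curdlan 4 of 6 dendritic cell markers rose in IL-2-/- cells and 3 in wild-type cells, against 9.29% and 7.27% of all genes. Ccr7 and Itgax were the brightest of the 6. Ccr7 read 12.51 to 12.64 with curdlan and 10.85 to 11.91 untreated in IL-2-/- cells. In wild-type cells it read 12.90 to 12.98 with curdlan and 11.85 to 12.12 untreated. Flt3, Zbtb46 and Cd86 had higher means with curdlan in both genotypes. Itgax and Dpp4 overlapped between treatments in each genotype. The log2 sum of the 6 was 13.99 to 14.12 with curdlan and 13.44 to 13.74 untreated in IL-2-/- cells. In wild-type cells it was 14.24 to 14.28 with curdlan and 13.72 to 13.91 untreated. Of 6 macrophage markers 2 rose in each genotype. Of 4 measured markers of plasmacytoid dendritic cells, 2 rose in IL-2-/- cells and 1 in wild-type cells. Their log2 sums were 10.09 to 10.42 with curdlan and 9.51 to 9.63 untreated in IL-2-/- cells. In wild-type cells they were 10.20 to 10.33 with curdlan and 9.52 to 9.57 untreated. The brightest of the 4 was Tcf4, at 9.82 to 10.22 with curdlan and 9.14 to 9.26 untreated in IL-2-/- cells. In wild-type cells Tcf4 read 9.95 to 10.13 and 9.13 to 9.20. Over all arrays Siglech read 5.80 to 6.05, Ly6d 6.22 to 6.63 and Ccr9 4.83 to 5.36. The part of these cell types in the H2-DMa result was not tested.

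The larger differences between the genotypes were in the genes of H2-DO and in Ciita, whose means were lower in IL-2-/- cells. In untreated cells H2-Oa fell by 1.04 on the log2 scale in IL-2-/- cells, a signal 2.06 times lower, and was the 1 member of 8 that passed the test. The background was 1.19% of all genes lower and 0.231% higher. In curdlan-treated cells 0 of 8 members passed, against 0.622% of all genes, 0.517% lower and 0.105% higher. The chains, Cd74 and H2-DMa differed between genotypes by at most 0.09 in either state, with adjusted p of 0.608 or above and intervals within -0.22 and 0.22. Of these, H2-DMa in curdlan-treated cells had no overlap, all IL-2-/- arrays reading higher, as did 7.71% of all genes. The median member difference was -0.04 with curdlan and -0.03 untreated, against 0.02 and 0.01 over all genes.

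H2-Oa, the alpha chain gene of H2-DO, read 8.47, 8.90 and 7.92 in curdlan-treated IL-2-/- cells, against 9.08, 9.05 and 9.03 in curdlan-treated wild-type cells. In untreated cells it read 8.24, 8.18 and 7.77 in IL-2-/- cells, against 8.96, 9.40 and 8.96 in wild-type cells. Every IL-2-/- array lay below every wild-type array in both states. The untreated difference was -1.04 ± 0.21 (SE; limma, 95% interval -1.50 to -0.58, adjusted p = 0.0367). The curdlan-treated difference was -0.63 ± 0.21, past no threshold (adjusted p = 0.251). Lower arrays with no overlap occurred in 7.88% of all genes in untreated cells and in 6.84% in curdlan-treated cells.

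The call for H2-Oa in untreated cells depended on single arrays, while the size of the difference moved less. Fitting only the compared groups gave an adjusted p of 0.0589. Leaving out untreated IL-2-/- replicate 1, 2 or 3 gave 0.0775, 0.0957 and 0.102. Leaving out untreated wild-type replicate 2 or 3 gave 0.186 and 0.0794. The call was also lost without curdlan-treated arrays that enter the estimate of spread, with 0.0599 without IL-2-/- replicate 1 and 0.0504 and 0.0597 without wild-type replicates 2 and 3. Over all these the difference stayed between -1.13 and -0.90. With the replicate number as a block it was called, at an adjusted p of 0.00561.

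H2-Ob, the beta chain gene of H2-DO, read 8.53, 8.61 and 7.04 in curdlan-treated IL-2-/- cells, against 9.13, 8.96 and 8.09 in curdlan-treated wild-type cells. In untreated cells it read 8.38, 8.50 and 7.37 in IL-2-/- cells, against 9.34, 9.29 and 8.40 in wild-type cells. Replicate 3 was the lowest array in all 4 groups, and the groups overlapped, although each IL-2-/- array lay below the wild-type array of its own number. The untreated difference was -0.93 ± 0.45 (SE) and missed the threshold (adjusted p = 0.526), and the curdlan-treated one was -0.67 ± 0.45 (adjusted p = 0.645). Untreated arrays of the same number deviated together between the genotypes, but curdlan-treated ones did not at number 2 (correlation of -0.134 across genes). With the number as a block in limma the untreated difference kept its size of -0.93, with an SE of 0.12 and an adjusted p of 0.0038. The block fitted the same effect of a number in all 4 groups, so this SE is not that of paired untreated arrays alone. That block raised the share of all genes called in untreated cells to 3.51% (699 genes), against 1.42% (283 genes) without it, and the members called to 2, H2-Oa and H2-Ob.

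Ciita read 10.12, 10.38 and 9.30 in curdlan-treated IL-2-/- cells, against 10.53, 10.72 and 10.46 in curdlan-treated wild-type cells. In untreated cells it read 9.75, 10.17 and 9.30 in IL-2-/- cells, against 10.09, 10.67 and 10.26 in wild-type cells. The curdlan-treated genotypes did not overlap, and the untreated ones did. The difference was -0.64 ± 0.27 with curdlan (SE; 95% interval -1.23 to -0.05, adjusted p = 0.380) and -0.60 ± 0.27 untreated (95% interval -1.19 to -0.01, adjusted p = 0.453). Neither passed after adjustment, although both had an unadjusted p under 0.05, as did 11.6% of all genes with curdlan and 10.6% untreated. Each IL-2-/- array read lower than the wild-type array of its number, by 0.34 at least and 1.16 at most.

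None of these 3 genes passed for curdlan. Ciita was higher with curdlan by 0.20 ± 0.27 in IL-2-/- cells (adjusted p = 0.606) and by 0.23 ± 0.27 in wild-type cells (0.593). The sign was the same in all 6 same-numbered pairs, at 0.0085 to 0.37 in IL-2-/- cells and 0.049 to 0.44 in wild-type cells. Without 1 array the difference in IL-2-/- cells went as low as -0.026. H2-Oa differed by 0.36 ± 0.21 in IL-2-/- cells (adjusted p = 0.221) and by -0.05 ± 0.21 in wild-type cells (0.885). Without curdlan-treated IL-2-/- replicate 3 the H2-Oa difference in IL-2-/- cells was 0.62 and passed (adjusted p = 0.0258). H2-Ob differed by -0.03 ± 0.45 in IL-2-/- cells (0.973) and by -0.29 ± 0.45 in wild-type cells (0.701). With same-numbered arrays of a genotype as pairs, the wild-type difference of H2-Ob was -0.29 ± 0.09 and passed (adjusted p = 0.0474), lower in 3 of 3 pairs. The interaction of curdlan with genotype passed for 0 of 8 members and for 0 of 19937 genes in limma. At an unadjusted p under 0.05 it held 552 genes, or 2.77%, and 0 members.

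**Figure D2:**
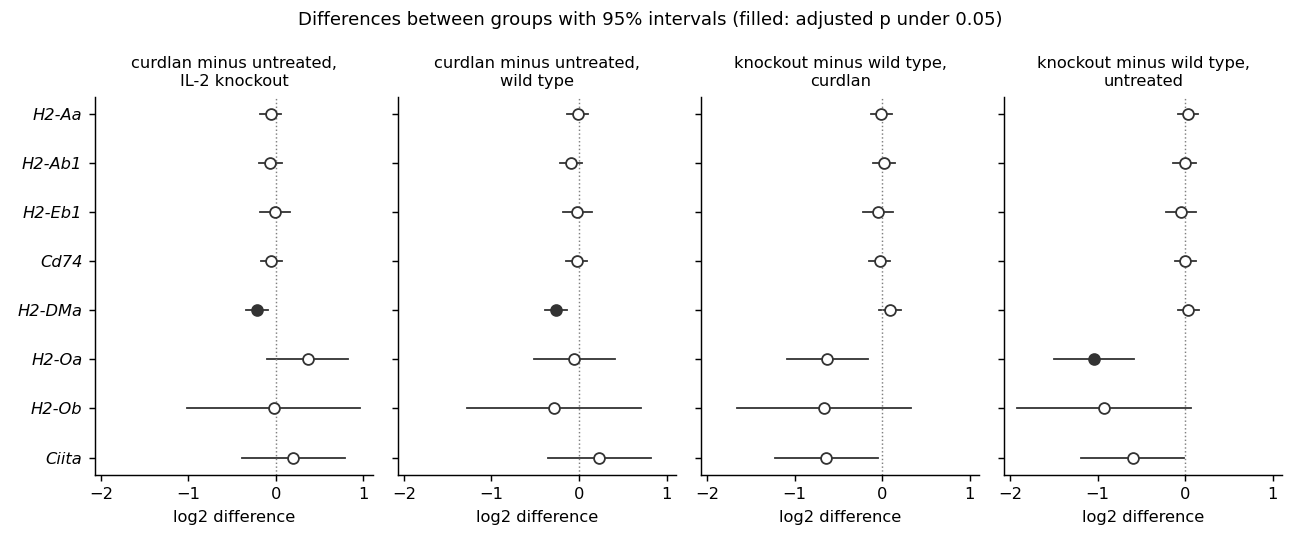
Log2 differences of the 8 members (rows) in the 4 comparisons (panels), with 95% intervals from the limma fit and filled points for an adjusted p under 0.05. H2-DMa lies below 0 in both curdlan panels, at -0.21 and -0.27, and H2-Oa is the only filled point between genotypes, at -1.04 in untreated cells.

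Ordered by group mean with the lowest first, H2-Oa averaged 8.07 ± 0.26 in untreated and 8.43 ± 0.49 in curdlan-treated IL-2-/- cells, then 9.05 ± 0.03 in curdlan-treated and 9.11 ± 0.25 in untreated wild-type cells (SD, n = 3 each). Neighbours in this order overlapped except at the step between the genotypes. H2-Ob averaged 8.06 ± 0.89 in curdlan-treated and 8.08 ± 0.62 in untreated IL-2-/- cells, then 8.72 ± 0.56 in curdlan-treated and 9.01 ± 0.53 in untreated wild-type cells (SD, n = 3 each), with overlap at every step. Ciita averaged 9.74 ± 0.44 in untreated and 9.93 ± 0.56 in curdlan-treated IL-2-/- cells, then 10.34 ± 0.30 in untreated and 10.57 ± 0.13 in curdlan-treated wild-type cells (SD, n = 3 each), also with overlap at every step. H2-DMa was ordered first by treatment, without overlap at that step. Within each state its IL-2-/- mean was the higher one, with overlap untreated and none with curdlan, and neither difference passed the test. It averaged 12.14 ± 0.04 and 12.05 ± 0.02 in curdlan-treated IL-2-/- and wild-type cells, against 12.35 ± 0.07 and 12.31 ± 0.08 in untreated IL-2-/- and wild-type cells (SD, n = 3 each).

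Apart from H2-DMa, the members fell into sets that varied together over the arrays. The 7 correlations of H2-DMa with the others ran from -0.44 with Ciita to 0.68 with H2-Ab1. Among the 3 chain genes and Cd74, the 6 pairwise correlations over 12 arrays were between 0.70 and 0.86, and between 0.81 and 0.92 after the group means were removed. Among H2-Oa, H2-Ob and Ciita the 3 correlations were between 0.80 and 0.91, and between 0.78 and 0.91 without the group means. The 12 correlations between the sets ran from -0.15 to 0.49. Ciita correlated at 0.91 with H2-Oa and at 0.80 with H2-Ob. With the other set it correlated at 0.49 with H2-Eb1, 0.17 with Cd74, 0.02 with H2-Ab1 and -0.0016 with H2-Aa, and at 0.49, 0.27, 0.38 and 0.28 after the group means were removed. The genes of a pair were read from the same RNA samples and normalised together, so these are descriptions of 12 arrays.

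The same variation within groups was read by replicate number, which gives no separate support for the sets. Replicate 3 was the lowest array of its group for H2-Ob in 4 of 4 groups, and for H2-Oa and Ciita in 3 of 4. Replicate 1 was the lowest for H2-Eb1 and Cd74 in 4 of 4 groups, and for H2-Aa and H2-Ab1 in 3 of 4. What the numbers stand for is not given in the labels.

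**Figure D3:**
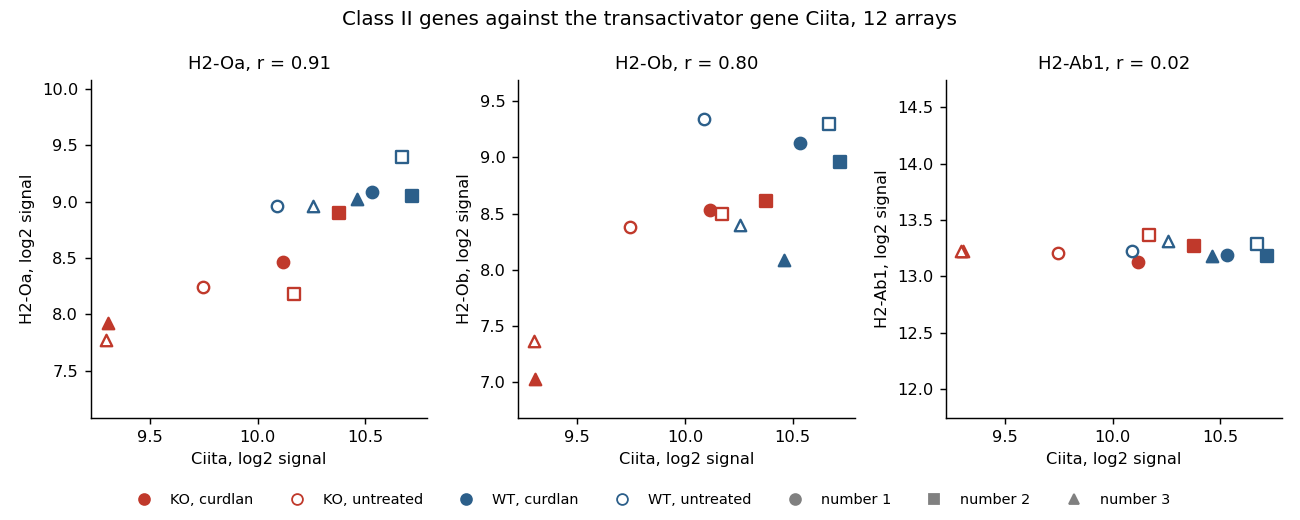
Log2 signal of H2-Oa, H2-Ob and H2-Ab1 (y axes, equal spans) against that of Ciita (x axis) on 12 arrays, coloured by genotype, filled for curdlan and shaped by replicate number. H2-Oa and H2-Ob climb with Ciita (r of 0.91 and 0.80), the IL-2-/- arrays of replicate 3 lying lowest, while H2-Ab1 has an r of 0.02 (0.38 after the group means were removed).

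Outside these genes and the pathway lists, the genes most like the mean of the chain genes and Cd74 over 12 arrays were Kcna3, Zfhx2, AI504432 and Luc7l2, each with r of 0.90, and Crnde with 0.85. Kcna3, a voltage-gated potassium channel gene, had group means between 9.88 and 9.91. The genes most like Ciita were Lipe (r of 0.96), Mtmr4 (0.94), Pik3r6 (0.94), P2rx5 (0.93) and Syngr2 (0.93). Lipe encodes hormone-sensitive lipase, and P2rx5 encodes an ATP-gated channel. Mtmr4, a phosphatase of phosphoinositides, had means of 10.19 in curdlan-treated and 10.01 in untreated IL-2-/- cells, against 10.84 in curdlan-treated and 10.67 in untreated wild-type cells.

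Between genotypes, the log2 sum of the dendritic cell markers lay between 13.99 and 14.12 in curdlan-treated IL-2-/- cells, against 14.24 to 14.28 in curdlan-treated wild-type cells. Untreated it lay between 13.44 and 13.74 in IL-2-/- cells, against 13.72 to 13.91 in wild-type cells. These sums were lower in IL-2-/- cells, without overlap after curdlan and with overlap untreated. Of the 6, Dpp4 was lower in IL-2-/- cells by 1.20 with curdlan (adjusted p = 0.0423) and by 1.45 untreated (adjusted p = 0.0134), and the other 5 did not pass. With curdlan all IL-2-/- arrays read below all wild-type arrays for 4 of the 6 (Zbtb46, Ccr7, Dpp4 and Cd86), against 6.84% of all genes. Untreated this held for 3 (Zbtb46, Dpp4 and Cd86), against 7.88%. In neither state did 1 of the 6 read higher without overlap. Itgax, the CD11c gene used for the beads, differed by 0.05 and 0.08. The 6 macrophage markers summed to 14.67 to 14.73 with curdlan and 14.60 to 14.72 untreated in IL-2-/- cells, against 14.55 to 14.68 and 14.48 to 14.61 in wild-type cells. Their part in the H2-Oa, H2-Ob and Ciita values was not tested.

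B cells express H2-Oa, H2-Ob and Ciita strongly, so their markers were read as well. Of 6 B cell markers 5 were measured. Their log2 sum was 7.87 to 7.99 with curdlan and 7.78 to 7.87 untreated in IL-2-/- cells. In wild-type cells it was 7.73 to 8.07 with curdlan and 7.82 to 7.84 untreated. These ranges overlapped, and Cd79a and Ms4a1 read below the lower quartile of gene means on all 12 arrays. The other 3, Cd79b, Pax5 and Blk, read between 5.76 and 6.36, above that quartile on every array. The part of B cell RNA in the differences of H2-Oa, H2-Ob and Ciita was not tested. For T cells 5 of 6 markers were measured, with Cd3d, Cd3g and Cd2 below that quartile on all arrays and sums between 7.71 and 8.01 over all groups. Of 5 plasmacytoid dendritic cell markers 4 were measured. Untreated, they summed to 9.51 to 9.63 in IL-2-/- cells and 9.52 to 9.57 in wild-type cells, with Ccr9 below the quartile on all arrays. All 4 basophil and mast cell markers were below it on all arrays, with sums between 6.60 and 6.78. The 7 neutrophil and precursor markers summed to between 8.72 and 9.27, with Ly6g below the quartile.

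Other genes of class II expression, processing and turnover were counted from lists. Of 43 listed pathway genes 40 could be tested, and in IL-2-/- cells 11 rose and 2 fell with curdlan, against 9.29% and 13.2% of all genes. In wild-type cells 8 rose and 1 fell, against 7.27% and 12.3%. The median pathway difference was -0.0022 in IL-2-/- cells and 0.03 in wild-type cells, beside 0.04 and 0.02 over all genes. Between genotypes 0 of 40 passed in either state, and 0 of 40 passed for the interaction, where all genes gave 0 as well. Without curdlan-treated replicate 2 or untreated replicate 1 of the IL-2-/- cells the count in IL-2-/- cells was 7 in place of 13. With same-numbered arrays as pairs the wild-type count was 15 in place of 9, against 26.4% of all genes called.

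H2-Eb2, a class II beta chain gene next to H2-Eb1 whose product is little studied, read 8.67, 8.63 and 7.60 in curdlan-treated IL-2-/- cells, against 6.89, 7.60 and 6.60 in untreated ones. Wild-type cells gave 9.48, 9.53 and 8.88 with curdlan, against 7.71, 8.42 and 8.44 untreated. It was higher with curdlan in all 6 same-numbered pairs. The difference was 1.27 ± 0.33 in IL-2-/- cells (SE; adjusted p = 0.0199) and 1.11 ± 0.33 in wild-type cells (adjusted p = 0.0368). The call in IL-2-/- cells was lost without curdlan-treated replicate 1 (0.0772) or 2 (0.0851) or untreated replicate 1 (0.0703) or 3 (0.0765), with differences between 1.05 and 1.62 over all single-array omissions. The wild-type call was lost without curdlan-treated replicate 1 (0.119) or 2 (0.111) or untreated replicate 1 (0.139), 2 (0.0585) or 3 (0.0550), and with a trended, robust prior (0.0610), with differences between 0.87 and 1.32 without 1 array.

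H2-Eb2 was lower in IL-2-/- cells by 1.00 with curdlan (adjusted p = 0.246) and by 1.16 untreated (adjusted p = 0.146), and neither passed. All its IL-2-/- arrays read lower in both states, as did those of 6.84% of all genes with curdlan and 7.88% untreated. With the number as a block the untreated difference passed (adjusted p = 0.0387), where 3.51% of all genes were called. H2-Ea, the I-E alpha chain gene that mice of the b haplotype are known not to express, read between 5.09 and 5.63 on all arrays, around the lower quartile of gene means, and its curdlan differences of 0.13 and 0.15 did not pass. H2-DMb1 and H2-DMb2, the beta chain genes of H2-DM, share a probe set with each other and were left out.

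Beside the counts that follow, 9.29% of all genes rose and 13.2% fell in IL-2-/- cells. In wild-type cells 7.27% of all genes rose and 12.3% fell. Among 10 genes of the promoter complex and its coactivators, 2 rose in IL-2-/- cells and 1 in wild-type cells. Rfx5, the DNA-binding subunit of RFX, rose by 0.49 ± 0.12 in IL-2-/- cells (adjusted p = 0.0178), while its difference in wild-type cells was 0.36 ± 0.12 (0.0661, and 0.0202 with the replicate block). Kat2b, an acetyltransferase that acts on CIITA, rose by 0.47 in IL-2-/- cells (0.0207) and by 0.56 in wild-type cells (0.00866). Among 12 inducers and repressors of Ciita, 5 rose and 1 fell in IL-2-/- cells, and 3 rose and 1 fell in wild-type cells. Irf1, which drives the interferon-responsive Ciita promoter, rose by 1.29 ± 0.13 in IL-2-/- cells and by 1.19 ± 0.13 in wild-type cells. Irf8, a factor of dendritic cell development, rose by 0.75 and 0.96, and Prdm1, a repressor of Ciita, by 0.39 and 0.42. Ifngr1, the ligand-binding chain of the interferon-gamma receptor, fell by 0.67 and by 0.73.

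Activators and a repressor of Ciita were thus among the genes that rose in both genotypes. Ifngr2, the other receptor chain, rose by 0.19 in IL-2-/- cells (adjusted p = 0.0195), and Jak2, the kinase bound to it, by 0.41 (0.0345). In wild-type cells their differences were 0.13 (0.0892) and 0.31 (0.0999), the Jak2 one passing with the replicate block (0.0190). Jak2 differed between untreated genotypes by -0.48 and passed there with the block (0.0232). Socs1, a feedback inhibitor of this pathway, differed by 0.51 and 0.52 without passing (0.0558 and 0.0555).

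Among 11 endosomal protease and processing genes, 1 rose and 1 fell in IL-2-/- cells, and 1 rose in wild-type cells. The shares of all genes that rose and fell were 9.29% and 13.2% in IL-2-/- cells, and 7.27% and 12.3% in wild-type cells. Sppl2a, the protease that removes the last membrane stub of the invariant chain, rose by 0.26 in IL-2-/- cells and by 0.26 in wild-type cells. Ctss, the cathepsin that makes CLIP, differed by -0.03 and -0.05. Ctsh fell by 0.21 in IL-2-/- cells (adjusted p = 0.0417) and differed by -0.18 in wild-type cells (0.0878). Among 5 genes of class II ubiquitination and turnover, 2 rose in each genotype. Cd83, which protects surface class II from ubiquitination, read 11.21, 11.34 and 11.09 in curdlan-treated IL-2-/- cells, against 9.24, 9.93 and 10.26 in untreated ones. It rose by 1.40 ± 0.22 in IL-2-/- cells (adjusted p = 0.0018) and by 1.29 ± 0.22 in wild-type cells (0.00252). Marchf1, the ligase that Cd83 opposes, differed by 0.15 (0.118) and 0.17 (0.0916).

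Several of the smaller calls in IL-2-/- cells did not survive the loss of 1 array. Rfx5 lost its call without curdlan-treated replicate 1 (adjusted p = 0.0570) or 2 (0.0789) or untreated replicate 1 (0.0620). Without curdlan-treated replicate 2 or untreated replicate 1, Kat2b gave 0.0910 and 0.0841 and Ifngr2 gave 0.0833 and 0.0773. Jak2 lost its call without curdlan-treated replicate 1 (0.102) or 2 (0.132) or untreated replicate 1 (0.138) or 3 (0.114). Ctsh lost its call without any 1 of 8 arrays, namely IL-2-/- curdlan replicates 1 and 2 (0.146 and 0.135) and untreated replicates 1, 2 and 3 (0.0942, 0.0504 and 0.134), and wild-type curdlan replicates 2 and 3 (0.0569 and 0.0541) and untreated replicate 3 (0.0587). When only the compared groups were fitted, Ifngr2 (0.0690), Jak2 (0.0890) and Ctsh (0.0976) were not called.

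**Figure D4:**
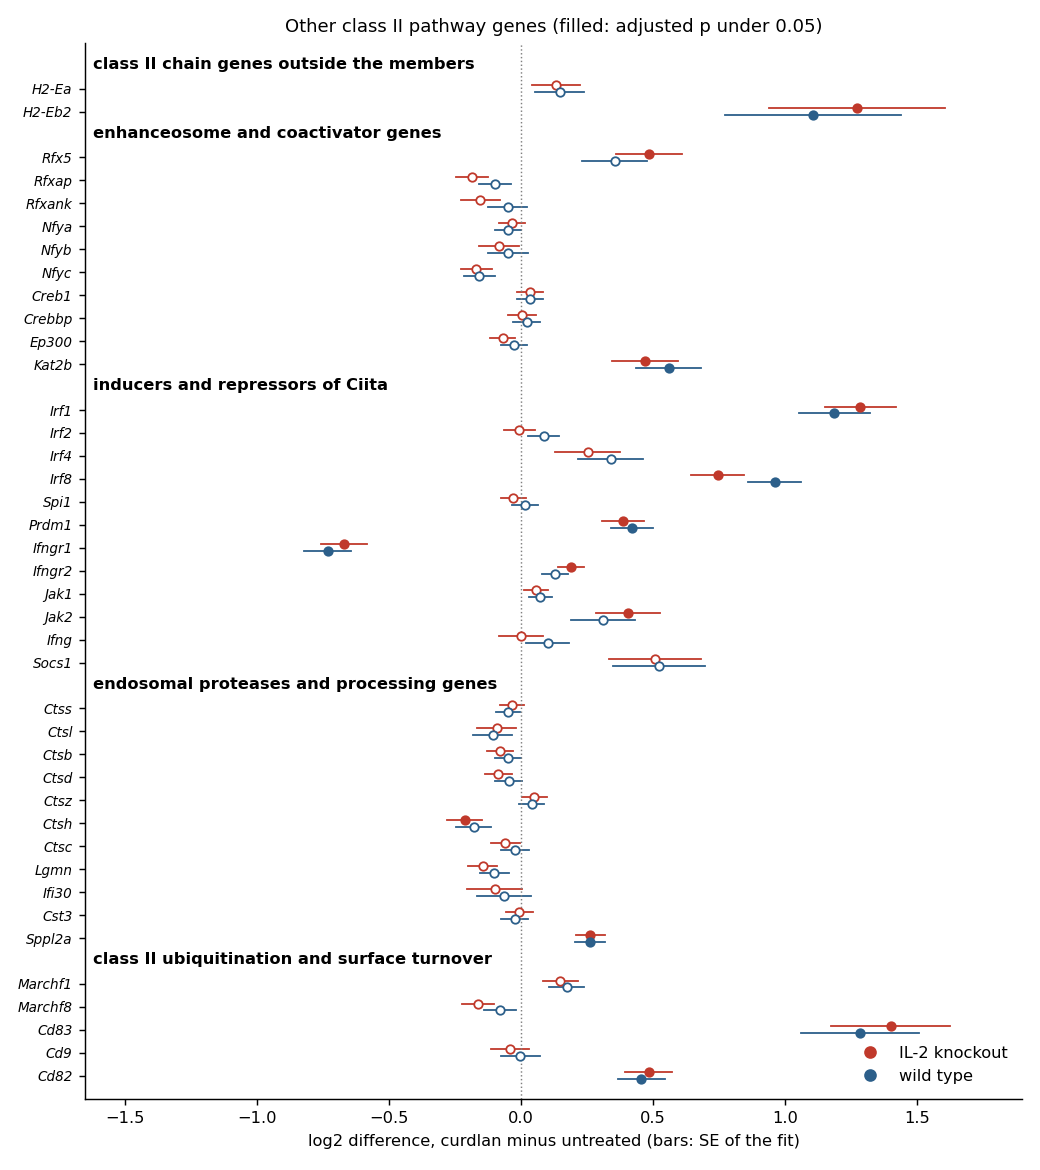
Curdlan minus untreated log2 differences (x axis) of the 40 tested pathway genes outside the members (rows, grouped by role) in IL-2-/- and wild-type cells, with SE bars of the fit and filled points for an adjusted p under 0.05. The larger rises are Cd83, Irf1 and H2-Eb2, each at 1.11 or above in both genotypes, and the larger fall is Ifngr1, at -0.67 and -0.73.

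Most of the members lie in the class II region of chromosome 17, among genes of class I peptide supply. In RefSeq's order 15 genes run from H2-Oa to H2-Eb2, of which 12 were tested, 6 members and 6 others. With curdlan all 6 others rose in both genotypes, while 0 of the 6 members rose and 1, H2-DMa, fell. Over all genes 9.29% rose and 13.2% fell in IL-2-/- cells, and 7.27% rose and 12.3% fell in wild-type cells, so the members' counts were near the background. The 6 others are Brd2, Psmb9, Tap1, Psmb8, Tap2 and H2-Eb2, and this set was drawn after values had been seen. Tap1, a subunit of the peptide transporter, rose by 1.23 ± 0.12 in IL-2-/- cells and by 1.21 ± 0.12 in wild-type cells. Psmb9, an immunoproteasome subunit, rose by 1.02 and 0.98, Tap2 by 0.73 and 0.65, and Psmb8 by 0.56 and 0.56. Brd2, a chromatin reader gene between H2-Oa and H2-DMa, rose by 0.30 and 0.27. Between genotypes 0 of the 6 others passed in either state, and the 5 apart from H2-Eb2 differed by at most 0.14.

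**Figure D5:**
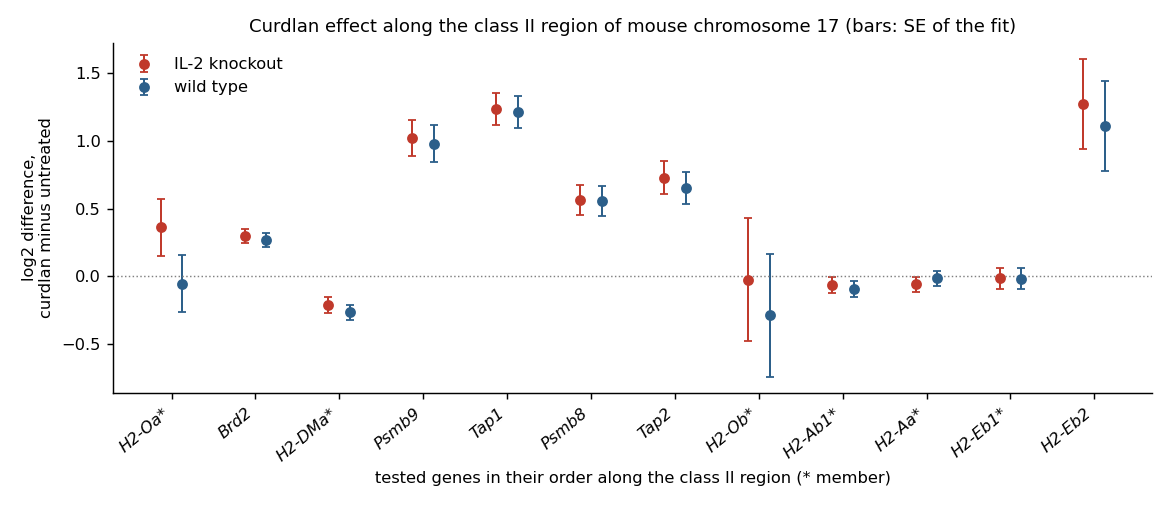
Curdlan minus untreated log2 difference (y axis, SE bars of the fit) of the 12 tested genes of the class II region in their order on the chromosome (x axis, even spacing, members starred), in IL-2-/- and wild-type cells. The 6 genes that are no members lie between 0.27 and 1.27 in both genotypes, and the starred chain genes lie within 0.09 of 0.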

How the data were processed

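The deposited values are log2 signals per probe set, made by the authors with RMA, per the submitters' processing notes. RMA corrects background, equalises array distributions and summarises probes. The labels state neither its version nor which arrays entered it together. Of 34760 probe sets, 21640 carried 1 symbol, 1321 several and 11799 were not listed. The probe set with the highest mean represented a gene, which gave 19937 genes, without filter or further normalisation. The number of arrays sets the precision.

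A mean for each of 4 groups was fitted to 12 arrays with limma 3.58.1 in R 4.3.3 (8 residual degrees of freedom). P-values, two-sided, were adjusted by Benjamini and Hochberg over all genes per comparison, at a threshold of 0.05. The comparisons share groups of arrays, so their values are given side by side. SE and intervals come from that fit. The code was run on simulated data with independent arrays, which cannot test the SE where same-numbered arrays correlate. All 8 members are named, with pathway genes that passed or whose role a sentence needed. For likeness, the 5 genes with the highest Pearson r are named. The members and lists were chosen with earlier results of these data known.

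The labels do not say what replicate numbers stand for. After group means were removed, same-numbered arrays of a genotype correlated across genes at 0.486, 0.526 and 0.604 in IL-2-/- cells and at 0.450, 0.368 and 0.404 in wild-type cells. Between untreated genotypes the correlations were 0.218, 0.105 and 0.254. These were taken as pairs, and blocked values are printed where they change a call. For curdlan and the interaction the block was each genotype and number. For the genotype comparisons it was an effect of each number shared by all 4 groups, curdlan-treated ones included. Alternatives were the compared groups alone, a filter on dim genes, the mean of probe sets, median centring, repeated quantile normalisation, a trended robust prior, array weights, the replicate block (fixed or random) and leaving out each array. Leaving out both arrays of a number was added after seeing the data.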

Additional observations from a re-analysis of the deposited data

How the results depend on the processing

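With 3 arrays a group, calls near the threshold moved with single arrays, while the member differences that were called kept their direction. Many of those not called changed sign in some alternative. Fitting only the compared groups called 0 members for curdlan in IL-2-/- cells and 0 for genotype in untreated cells, with fewer residual degrees of freedom. It called 15 of all genes for genotype with curdlan and 70 untreated, in place of 124 and 283. Array weights called 1402 genes for genotype with curdlan and 615 untreated. The cause was not tested. With the replicate block, 2 members were called for curdlan in wild-type cells, H2-DMa and H2-Ob, against 26.4% of all genes (5258), and 2 for genotype in untreated cells among 699 genes. In curdlan-treated cells the numbers did not pair the genotypes by the same check (0.166, -0.134 and 0.328). There the block called 450 genes and 1 member, H2-Ob (-0.67, adjusted p = 0.0224), with Ciita at 0.0792 and H2-Oa at 0.0671. The block changed no other member's call.

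Leaving out 1 array, or both arrays of a number, left 0 to 2 members and 1079 to 5284 genes called for curdlan in IL-2-/- cells, where the full data gave 1 and 4481. For curdlan in wild-type cells it left 0 to 1 members and 1841 to 4011 genes, where the full data gave 1 and 3899. For genotype with curdlan it left 18 to 299 genes, and untreated 0 to 1 members and 9 to 608 genes. For the interaction it left 0 to 3 genes. H2-DMa lost its call in wild-type cells without both wild-type arrays of number 1 (adjusted p = 0.0586) or 3 (0.0650), and in IL-2-/- cells without both arrays of any number (0.0909, 0.111 and 0.0630). Over all alternatives the adjusted p of H2-DMa ran from 0.0068 to 0.111 in IL-2-/- cells and from 0.0011 to 0.0650 in wild-type cells, and that of H2-Oa in untreated cells from 0.0056 to 0.241.

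Signs turned only for members that were not called. Repeating the quantile normalisation gave differences with curdlan of 0.044 for H2-Eb1 and 0.048 for H2-Ob in IL-2-/- cells, and 0.017 for H2-Aa, 0.0088 for H2-Eb1 and 0.0040 for H2-Oa in wild-type cells. It gave -0.012 for Cd74 between untreated genotypes and 0.0032 for its interaction. Array weights gave 0.25 for H2-Ob with curdlan in IL-2-/- cells, -0.024 for Cd74 between untreated genotypes and 0.081 for the interaction of Ciita. Median centring gave 0.0052 for H2-Aa between curdlan-treated genotypes and 0.0054 for H2-Ab1 between untreated ones. The cause was not tested.

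With arrays left out, curdlan differences in IL-2-/- cells ran from -0.070 to 0.046 for H2-Eb1, -0.38 to 0.49 for H2-Ob and -0.026 to 0.51 for Ciita. In wild-type cells they ran from -0.037 to 0.017 for H2-Aa, -0.085 to 0.025 for H2-Eb1, -0.051 to 0.0040 for Cd74, -0.14 to 0.092 for H2-Oa and -0.59 to 0.031 for H2-Ob. Genotype differences with curdlan ran from -0.041 to 0.024 for H2-Aa and -0.0077 to 0.063 for H2-Ab1. Untreated they ran from -0.057 to 0.023 for H2-Ab1, -0.11 to 0.0023 for H2-Eb1, -0.036 to 0.033 for Cd74 and -0.0042 to 0.076 for H2-DMa. Interactions ran from -0.00095 to 0.079 for H2-Ab1, -0.052 to 0.071 for H2-Eb1, -0.063 to 0.0065 for Cd74, -0.094 to 0.77 for H2-Ob and -0.26 to 0.28 for Ciita. H2-Oa, H2-Ob and Ciita had SEs of 0.21, 0.45 and 0.27, which sets how small a difference could be seen. Background signal was not measured here, so its limit for dim genes is not given.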
